A study of Mus musculus with 16 samples.

Results

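Hepatocytes, the parenchymal cells of the liver, synthesize most proteins of blood plasma. The 10 genes described here encode such proteins: albumin (*Alb*), the apolipoproteins *Apoa1*, *Apoa2* and *Apob*, 2 chains of fibrinogen (*Fga* and *Fgb*), transthyretin (*Ttr*), transferrin (*Trf*) and the serpins *Serpina1a* and *Serpina3k*. They were picked by symbol from a table of 25054 genes, and each of them had a row. They had been proposed as a set because counts of such genes were seen in 1 tumor, named Zelda, so all values of Zelda are a description and carry no test.

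RNA was sequenced from 16 osteosarcomas of mice that had received 400 ug tamoxifen per g of body weight at 1 month of age and were older than 6 months. All of the mice carried p53fl/fl, Rb1fl/fl and OsxCreERT2+/-, the last an inducible Cre under Osterix control that acts in cells of the osteoblast lineage, and the 8 tumors of the KO group also carried Arid1afl/fl. Each KO tumor bears a mouse name of its own (Massa, Medusa, Montana, Ohio, Prince, Grilka, Zelda and Oregon), and no body site is labeled for them. The 8 WT tumors came from 4 mice. Mouse N42 gave 4 of them, N43 gave 2, and N215 and N25 gave 1 each, with lung as the labeled site of the N25 tumor. Males and females were used, and the sex of a single tumor's mouse is not labeled. Whole tumor tissue was used, so fewer cells of a type and less RNA per cell cannot be told apart.

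Total counts per tumor ranged from 1109487 in Massa to 15059640 in Prince for KO, with 10036373 in Zelda, and from 7806160 to 16962329 for WT. The 2 shallowest tumors, Massa and Grilka, stood apart in composition as well, with 72.8% and 70.3% of their counts on 20 genes. A count of 3, used here as the lowest level that could be told from 0, was worth 6.48 CPM (counts scaled by TMM to a library of 1e+06) in Massa, 3.99 CPM in Grilka and 0.140 to 0.326 CPM in WT. *Arid1a* itself lay between 104 and 267 CPM in KO and between 120 and 227 CPM in WT, so the whole-gene counts overlapped and do not separate the groups; Zelda was at 169 CPM. Of 14 osteoblast genes all had counts in Zelda, although *Mepe* had 2, under the 3 counts taken as the lowest level. Their sum was 13920 CPM there against a median of 28160 and a range of 814 to 88730 CPM in the other 15 tumors. *Col1a1* (6175 CPM), *Col1a2* (4770 CPM) and *Sparc* (1758 CPM) weighed most in the sum of Zelda. Zelda was highest for 0 of the 14. Each of them except *Ibsp* (533 against 310 CPM) was below its median in the other tumors.

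In the adult liver, albumin, transferrin and transthyretin carry fatty acids, iron and thyroid hormone in plasma, apolipoproteins build high-density and very-low-density lipoproteins, fibrinogen forms the clot, and the serpins inhibit proteases. Their genes are read at high rates in hepatocytes under factors of the HNF4, FOXA and C/EBP families. Transferrin is also made in other tissues, and apolipoprotein B in the intestine.

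All 10 genes had their highest CPM of the 16 tumors in Zelda. Together they took 34739 counts there, 0.346% of the library (exact binomial 95% interval 0.343 to 0.350, counting error only). *Trf* was the only one of the 10 with counts in every tumor. The other 9 genes together had 28625 counts in Zelda, between 0 and 67 counts (median 2) in the other 7 KO tumors and between 3 and 328 counts (median 13) in the 8 WT tumors. The second highest sum, 328 in N25 lung, came almost wholly from *Apob*, and the third, 67 in Prince, from *Ttr*. No tumor other than Zelda had counts of all 10, and 7 was the most genes seen in any of them.

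**Figure D1:**
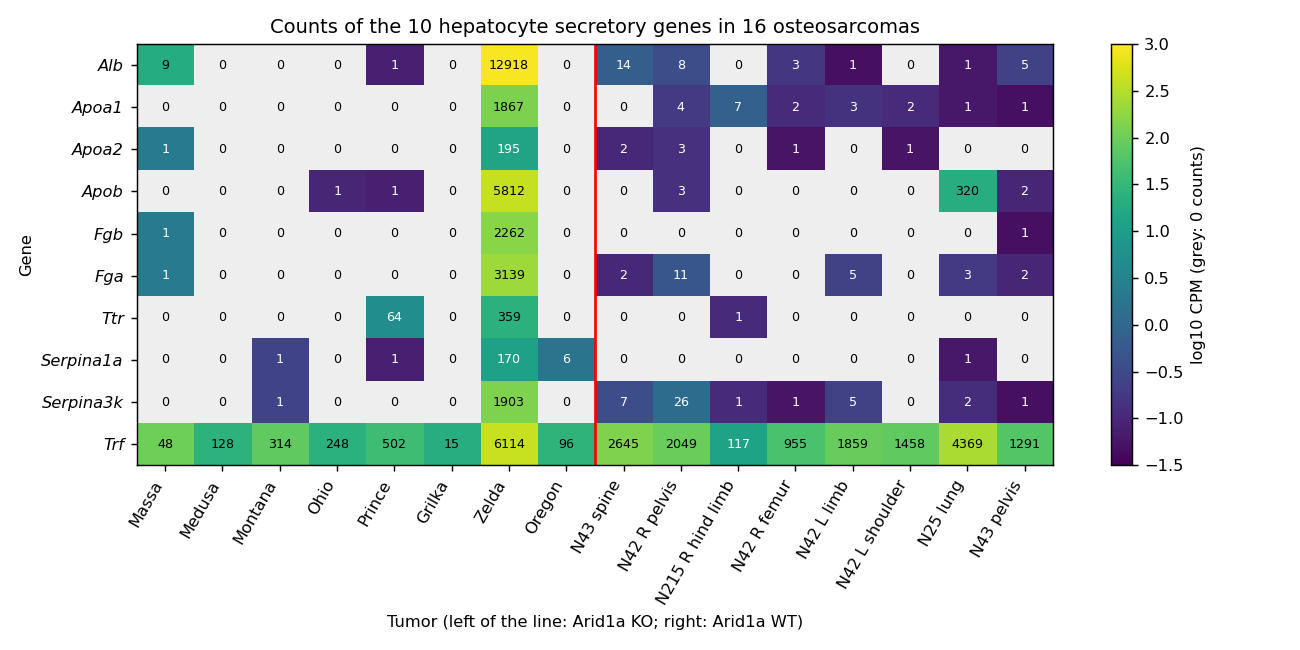
Deposited counts (numbers in the cells) of the 10 genes (rows) in the 16 tumors (columns, KO left and WT right of the red line), colored by log10 CPM with 0 counts in grey. Zelda is filled in every row, from 170 counts of *Serpina1a* to 12918 of *Alb*, *Trf* has counts in every column, and the isolated values elsewhere are *Apob* in N25 lung (320) and *Ttr* in Prince (64).

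Albumin was the most abundant of the 10. *Alb* had 12918 counts in Zelda, or 899 CPM. The other KO tumors ranged from 0 to 9 counts, with 5 of the 7 at 0, Massa at 9 and Prince at 1, and the WT tumors ranged from 0 to 14 counts with a median of 0.113 CPM. By CPM the highest of the others was Massa at 19.4, because its library is small, and the ratio of Zelda to it was 46.3 (exact 95% interval for counting error 24.4 to 101). Against the summed counts of the other 15 tumors the ratio was 3869 (2861 to 5371). Among protein-coding genes *Alb* held rank 17 in Zelda, both by counts and by counts per kb of exon. With total counts as library size the ratio to the highest other tumor was 159.

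Of the fibrinogen genes, *Fgb* had the fewest counts outside Zelda of the 10. Fibrinogen is built from 3 chains, Aα, Bβ and γ, encoded by neighboring genes on chromosome 3 of GRCm38, where *Fga* lies at 83026076 to 83033627 on the plus strand and *Fgb* at 83040141 to 83049863 on the minus strand. *Fgb* had 2262 counts in Zelda (157 CPM), 1 count each in Massa and N43 pelvis and 0 in the other 13 tumors. *Fga* had 3139 counts in Zelda (218 CPM), 11 in N42 R pelvis, the most among the others, and 0 in 9 tumors. Both genes thus stood far above every other tumor, with ratios to the pooled others of 14230 (3934 to 117600) for *Fgb* and 1645 (1104 to 2572) for *Fga*. The ratios to the highest single tumor, 72.9 (13.1 to 2881) for *Fgb* and 101 (18.2 to 3998) for *Fga*, rest on 1 count in Massa. Under total counts they were 250 for *Fgb* and 347 for *Fga*. The third chain, *Fgg*, which was not among the 10 genes, had 2006 counts in Zelda and at most 9 in another tumor, N25 lung.

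The apolipoproteins differed among themselves outside Zelda. *Apoa1*, the main protein of high-density lipoprotein (chromosome 9, 46228580 to 46230466), had 1867 counts in Zelda (130 CPM), 0 in all 7 other KO tumors and 0 to 7 in WT, where 7 of 8 tumors had at least 1 count. *Apoa2*, a second protein of that particle (chromosome 1, 171225054 to 171226379), had 195 counts in Zelda (13.6 CPM), 0 or 1 in the other KO tumors and 0 to 3 in WT. *Apob*, the structural protein of very-low-density lipoprotein and chylomicrons (chromosome 12, 7977648 to 8016835), had 5812 counts in Zelda (404 CPM), 0 or 1 in the other KO tumors, 320 in N25 lung (19.9 CPM) and 0 to 3 in the other 7 WT tumors. *Apob* was therefore the one of these 3 with a clear level in another tumor, and the ratio of Zelda to N25 lung was 20.3 (18.2 to 22.8). N25 lung had 1 count each of *Alb* and *Apoa1* and 0 of *Apoa2*, so its *Apob* was not accompanied by those genes. The ratio of Zelda to the highest other tumor was 171 (82.6 to 425) for *Apoa1* and 6.29 (1.12 to 250) for *Apoa2*, the latter against 1 count in Massa; it was 21.6 for *Apoa2* under total counts.

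*Serpina1a* had the fewest counts of the 10 in Zelda, followed by *Apoa2* and by transthyretin. *Ttr* had 359 counts in Zelda (24.98 CPM), 64 in Prince (5.06 CPM), 1 in N215 R hind limb and 0 in the other 13 tumors, and the ratio of Zelda to Prince was 4.94 (3.78 to 6.55), or 8.42 under total counts. *Ttr* is also a product of the choroid plexus of the brain. Prince had 1 count of *Alb* and 0 of *Apoa1*, *Fga*, *Fgb* and *Serpina3k*, so *Ttr* stood there without the other genes. *Serpina1a*, one of the α1-antitrypsin genes of the mouse (chromosome 12, 103853589 to 103863562), had 170 counts in Zelda (11.8 CPM), 6 in Oregon and at most 1 in any other tumor; the ratio of Zelda to Oregon was 7.07 (3.18 to 19.5), or 16.2 under total counts. *Serpina3k*, the gene of a kallikrein-binding serpin (chromosome 12, 104338486 to 104346144), had 1903 counts in Zelda (132 CPM), 26 in N42 R pelvis, 7 in N43 spine and 0 to 5 in the other 13 tumors. Its ratio to N42 R pelvis was 110 (74.5 to 168).

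Both serpins belong to clusters of near-identical genes, and the authors allowed up to 50 alignments per read and kept the best, so counts of single cluster genes are uncertain. In the Serpina1 cluster all 5 genes with a row were at their highest in Zelda: *Serpina1b* had 339 counts, *Serpina1a* 170, *Serpina1e* 161, *Serpina1c* 154 and *Serpina1d* 87, and no other tumor exceeded 6 counts of any. The 5 summed to 63.4 CPM in Zelda and to at most 1.67 CPM, in Oregon, elsewhere. The Serpina3 cluster was mixed. By CPM Zelda was highest for 4 of its 9 genes with a row, namely *Serpina3k*, *Serpina3m*, *Serpina3g* and *Serpina3b*. *Serpina3m* had 381 counts in Zelda and 350 in N42 R pelvis, whose library is larger. *Serpina3n*, the acute phase gene of the cluster, had 907 counts in Zelda and 8975 in N42 R pelvis. *Serpina3g* (286 counts in Zelda) and *Serpina3f* (69) had up to 112 and 57 counts in WT, *Serpina3c* had 20 counts in Zelda and 331 in N42 R pelvis, and *Serpina3h* and *Serpina3i* had 21 and 17 in Zelda and up to 34 and 26 in N42 L limb. *Serpina3b* had 52 counts in Zelda and 0 in all others. *Serpina3k* was thus the most abundant Serpina3 gene in Zelda and a minor one in N42 R pelvis.

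Levels can be compared between genes only per length. Per kb of exon (union of annotated exons), *Alb* was highest in Zelda with 5516 counts per kb (Poisson 95% interval 5421 to 5612), 2.995 times the next (2.91 to 3.09), *Trf* with 1842 counts per kb. *Apoa1* (1511), *Fga* (1043), *Serpina3k* (925), *Fgb* (594), *Apob* (417), *Apoa2* (363), *Ttr* (303) and *Serpina1a* (92.8 counts per kb) followed. Each gene in this order exceeded the next beyond counting error except *Apob* and *Apoa2*, whose ratio per kb was 1.15 (0.996 to 1.33). *Apob*, with 13.9 kb of exon the longest of the 10, was at rank 3 by counts and at rank 7 per kb. *Fga* and *Fgb* differed by 1.76-fold per kb in the same tumor.

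**Figure D2:**
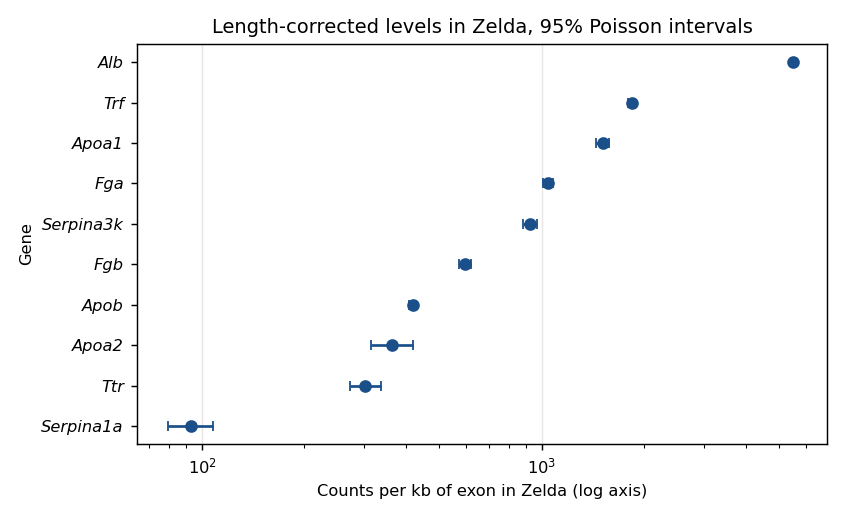
Counts per kb of exon in Zelda (horizontal log axis) for the 10 genes, highest at the top, with 95% Poisson intervals for counting error only. The levels run from 92.8 for *Serpina1a* to 5516 for *Alb*, and the interval of *Apoa2* overlaps those of *Apob* and *Ttr*.

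RefSeq promoter windows (GRCm38.p6) were at hand for 7 of the 10 genes, and not for *Serpina3k*, *Trf* and *Ttr*. The 250 bases before the annotated start were searched on both strands for 3 motifs known from promoters of this kind: an HNF4 motif TGNACTTTG, a C/EBP motif TTGCNNAA and the TATA box TATAAA. No 2 matches of different motifs overlapped. The C/EBP motif was found in 4 of the 7 (*Alb*, *Apob*, *Fga* and *Fgb*) and in 9.57% of all 32817 promoter windows of that length, the TATA box in 2 (*Apoa2* and *Apob*) and in 12.4%, and the HNF4 motif in 0 of the 7 and in 1.19%. The *Apoa1* and *Serpina1a* windows held none of the 3, and a second annotated start of *Apoa2* held 2 C/EBP matches. The windows of *Alb*, *Fga*, *Fgb* and *Apob*, which share the C/EBP letters, are shown 5′ to 3′ on the gene's strand. They end 1 base before the RefSeq start, with the matches in capitals. Gene positions given above are from GENCODE, and the windows of *Fga* and *Apob* reach past the GENCODE start. These are matches of letters, and no binding was measured.
*Alb*, chr5:90460620-90460869, plus strand: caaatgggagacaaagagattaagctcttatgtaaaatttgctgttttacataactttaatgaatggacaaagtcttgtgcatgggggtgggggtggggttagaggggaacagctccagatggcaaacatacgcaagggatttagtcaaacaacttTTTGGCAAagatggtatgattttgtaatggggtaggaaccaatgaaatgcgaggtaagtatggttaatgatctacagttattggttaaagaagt
*Fga*, chr3:83025903-83026152, plus strand: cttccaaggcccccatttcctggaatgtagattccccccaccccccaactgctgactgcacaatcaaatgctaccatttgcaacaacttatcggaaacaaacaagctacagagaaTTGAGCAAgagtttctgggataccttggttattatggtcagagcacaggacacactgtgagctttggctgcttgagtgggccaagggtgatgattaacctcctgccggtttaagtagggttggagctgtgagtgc
*Fgb*, chr3:83049864-83050113, minus strand: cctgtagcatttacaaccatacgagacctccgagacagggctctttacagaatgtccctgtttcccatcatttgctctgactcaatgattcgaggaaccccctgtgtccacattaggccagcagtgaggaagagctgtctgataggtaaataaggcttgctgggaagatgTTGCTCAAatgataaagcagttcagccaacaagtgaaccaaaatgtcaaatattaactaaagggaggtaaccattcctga
*Apob*, chr12:7977427-7977676, plus strand: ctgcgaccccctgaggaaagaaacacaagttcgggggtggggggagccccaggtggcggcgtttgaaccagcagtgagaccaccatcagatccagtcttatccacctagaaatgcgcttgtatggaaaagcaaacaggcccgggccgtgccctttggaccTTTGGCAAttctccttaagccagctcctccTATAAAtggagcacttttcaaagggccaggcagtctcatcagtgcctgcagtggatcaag

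The C/EBP match lay 94 to 87 bases before the RefSeq start of *Alb*, 90 to 83 before that of *Apob*, 80 to 73 before that of *Fgb* and 135 to 128 before that of *Fga*. In *Apob* the TATA letters lay 60 to 55 bases before the RefSeq start.

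How far the 10 genes stood out in Zelda was read against every gene with at least 50 counts there. Of 12954 such genes, 27 (0.208%) were over 10 times their level in the highest other tumor, each tumor taken at no less than the value of 3 counts, and 6 of the 10 were among them: *Alb*, *Apoa1*, *Apob*, *Fga*, *Fgb* and *Serpina3k*. Since counts in Zelda led to the choice of the genes, nothing is read from that share. The other 4, *Apoa2*, *Ttr*, *Serpina1a* and *Trf*, were under the limit, and their ratios to the highest other tumor were under 10 without the 3-count minimum as well. With total counts as library size 68 genes were over 10 times, the same number of the 10 among them.

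**Figure D3:**
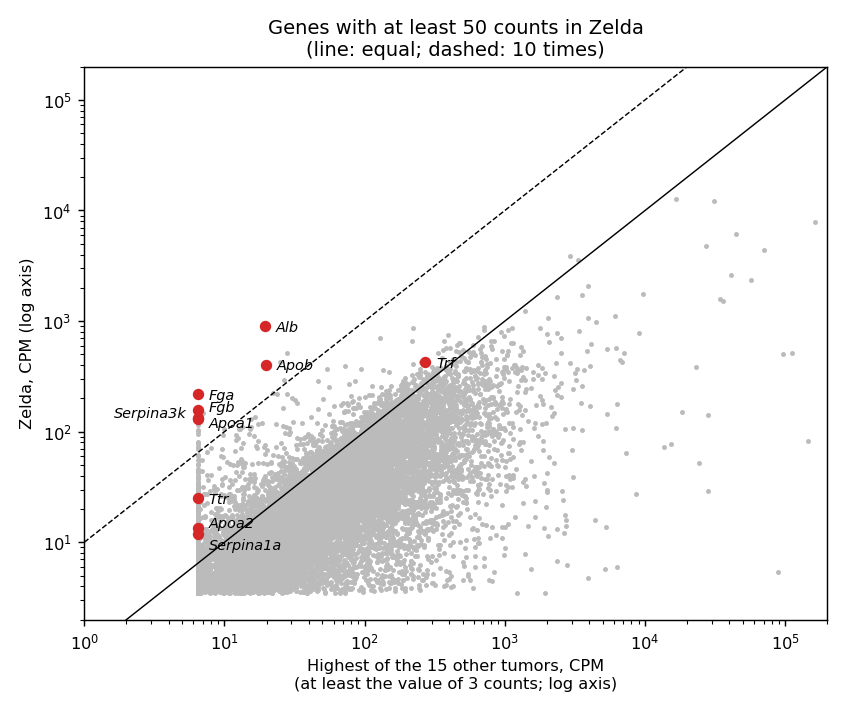
CPM in Zelda (vertical log axis) against the highest CPM of the other 15 tumors, set to no less than 3 counts (horizontal log axis), for the 12954 genes with at least 50 counts in Zelda, with the 10 genes in red. *Alb*, *Apoa1*, *Apob*, *Fga*, *Fgb* and *Serpina3k* lie above the dashed line of 10 times, and *Trf* lies near the line of equality at 425 against 272 CPM.

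Other genes of hepatocytes were seen in Zelda with the 10. Of 44 further secreted liver proteins, all with a row, Zelda was the highest of the 16 tumors for 37, against 2894 of all 25054 genes (11.6%). The most abundant were the protease inhibitor *Pzp* (2272 counts, at most 3 elsewhere), the heme carrier hemopexin, *Hpx* (2268 counts), and *Fgg*. Here and in the lists that follow, a count given for a second tumor is that of the highest other tumor by CPM. The median log2 ratio of Zelda to the median of the others (on CPM + 1) was 3.68 for this list, 7.01 for the 10 genes and 0.10 for all genes. *Pzp*, *Hpx*, *Fgg*, *Ahsg* (fetuin A, 1836 counts), *Mug1* (1497) and *Gc* (vitamin D binding protein, 1125) were over 10 times the highest other tumor. The 44 genes of the list summed to 1517 CPM in Zelda and to 37.8 to 265 CPM in the others, so Zelda lay above the whole range.

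Enzymes and transporters of hepatocytes were present at lower levels. Of 31 metabolic enzymes with a row Zelda was highest for 21, and their sum of 556 CPM lay within the range of the others (10.97 to 1182 CPM, median 113). The top of that range was N25 lung, where *Aldh1a1* alone was at 1011 CPM. The median log2 ratio of Zelda to the median of the others was 2.47 for the enzymes, 2.48 for the cytochromes P450 and 2.37 for the transporters. The most abundant in Zelda were *Cps1* of the urea cycle (1367 counts, 3 in N215 R hind limb) and *Mat1a* of methionine metabolism (1326, 260 in N25 lung). Of 22 cytochromes P450 with a row it was highest for 18, with 552 counts of *Cyp3a11* (6 in N43 spine), 437 of *Cyp2e1* and 227 of *Cyp3a25* (5 in N43 spine), but *Cyp2e1* was higher by CPM in Montana (56.8 against 30.4). Of 16 transporters it was highest for 12, among them the organic anion carrier *Slco1b2* (360 counts, 8 in N215 R hind limb), while *Abcb4* (1220) and *Slc38a4* (551) were higher in Montana and Oregon, and the sum of 233 CPM was just under the 237 CPM of Oregon. Summed P450 reached 161 CPM in Zelda and 3793 CPM in N25 lung, where *Cyp2f2*, which club cells of the airway also express, had 59865 counts against 7 in Zelda.

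The regulators were mixed. Of 18 liver-enriched transcription factors Zelda was highest for 8, and the summed list was 143 CPM there against a median of 174 CPM in the others. *Cebpb* and *Cebpa* weigh most in the sums of the others, with medians of 95.75 and 48.84 CPM. The median log2 ratio of Zelda to the median of the others was 1.065, so the sum does not describe each factor. *Hnf4a*, the nuclear receptor that marks hepatocyte identity, was at 14.96 CPM in Zelda and had at most 2 counts in any other tumor, a ratio to N42 R pelvis of 161 (44.0 to 1337). *Prox1* (446 counts, 31.0 CPM) exceeded Montana by 1.86-fold (1.44 to 2.44). *Cebpb* (476) and *Cebpa* (298) were more abundant elsewhere, at 0.167 and 0.185 times the level of Montana and of Massa. *Foxa2* had 10 counts, *Foxa3* 21 and *Foxa1* 2 in Zelda, and *Foxa1* was highest in N25 lung, at 51.2 CPM. *Onecut2* had 121 counts in Zelda, 6.33 times the CPM of Grilka (1.12 to 252), which had 1 count. *Creb3l3* had 176 counts in Zelda, *Ppara* 69, *Nr1i3* 65, *Nr1i2* 44, *Nr1h4* 41, *Nr5a2* 31, *Nr0b2* 17 and *Onecut1* 12.

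Markers of liver zones, age and sex were read the same way. Of 11 periportal genes Zelda was highest for 3, *Cps1*, *Hsd17b13* (84 counts) and *Sds* (25), while *Ctsc* (2753) was at 0.982 times N42 L shoulder (0.934 to 1.03) and *Pck1* (368) at 0.723 times Montana (0.594 to 0.884). Zelda was also highest for 3 of 11 pericentral genes, *Cyp2c29* (101 counts), *Gulo* (53) and *Cyp1a2* (19), while *Glul* (2090), *Oat* (796) and *Cyp2e1* were all higher in Montana. Of the fetal liver genes *Ahsg*, which adult liver also makes, was the only one with at least 50 counts; *Gpc3* had 34, *Cyp3a16* 26, *Afp* 21, *H19* 5, *Igf2* 2 and *Dlk1* 1, and *Igf2* reached 26423 counts in N215 R hind limb. Of the major urinary protein genes 4 had a row, and Zelda had 6 counts of *Mup3* and 0 of *Mup4*, *Mup5* and *Mup6*, whereas Prince had 299, 502 and 48 of the last 3. The 12 female-biased liver genes with a row summed to 43.8 CPM in Zelda (median of the others 40.6), with *Sult2a1* (98 counts, 3 in N25 lung) and *Prom1* (98 counts), and the 5 male-biased ones to 15.7 CPM (median 10.2), with *Cyp7b1* (99) and *Nudt7* (71). *Xist* had 51591 counts in Zelda, *Kdm5d* and *Uty* 2 each, and *Ddx3y* and *Eif2s3y* 0.

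By their sum, inflammation-responsive liver genes did not single out Zelda. It was highest for 9 of 14 acute phase genes, but their sum, 426 CPM, lay within the range of the others (8.76 to 952 CPM). *Hp* made up 774 of the 952 CPM, which were those of N25 lung. The median log2 ratio of Zelda to the median of the others was 3.43 for this list. *Hp*, haptoglobin, had 1452 counts in Zelda and 12443 in N25 lung, and *Itih4* (1032 counts) was at 0.616 times the level of Massa (0.468 to 0.826). Serum amyloid P, *Apcs*, had 270 counts in Zelda and 1 in N25 lung, its highest other tumor by CPM. The iron hormone hepcidin, *Hamp*, had 253 in Zelda and 3 in Prince.

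Among the other cell types of the liver, Kupffer cell genes were above the range of the other tumors in Zelda, and the other 3 lists were not. Of 10 Kupffer cell genes Zelda was highest for 7 and their sum was 410 CPM (21.5 to 182 in the others). *Clec4f*, a receptor of Kupffer cells, had 111 counts in Zelda and 0 in all 15 others. The most abundant were the iron exporter *Slc40a1* (3741), *Marco* (547) and *Cd5l* (400). *Slc40a1*, which is on the red pulp macrophage list too, made up 260 CPM of the sum in Zelda. In N43 spine, the highest other tumor, it made up 154 of 182 CPM. Of 11 genes of liver sinusoidal endothelium it was highest for 3, with *Stab2* at 4106 counts, 6.17 times Oregon (5.28 to 7.25), and *Stab1* (1484) and *Fcgr2b* (716) at 0.185 times N43 pelvis and 0.332 times N42 R pelvis; the sum of 598 CPM lay within the range of the others (112 to 789). Stellate cell genes summed to 186 CPM in Zelda, below all others (207 to 5681), led by *Rgs5* (658), *Pth1r* (625) and *Reln* (530). Their median log2 ratio of Zelda to the median of the others was nonetheless 0.57, so the low sum does not describe each gene of the list. Zelda was highest for none of the 11 cholangiocyte genes, which summed to 336 CPM (60.3 to 3283), with *Spp1* (4254), *Slc4a2* (415) and *Sox9* (80) in front. *Spp1*, which is on the osteoblast list too, made up 296 CPM of that sum. The part of these cell types in the values of the 10 genes was not tested.

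Blood cell genes were read in lists that were added after values of Zelda had been seen. Of 17 erythroid genes Zelda was highest for 16, and their sum was 2781 CPM against 25.9 to 830 CPM in the others, with *Slc4a1* (10022 counts) and *Sptb* (4348) among the most abundant. All 12 B cell genes were highest in Zelda, with a sum of 1717 CPM against 1.33 to 173 CPM and *Cr2* (7365), *Bank1* (4238) and *Ms4a1* (3203) in front. Of 9 red pulp macrophage genes of the spleen 8 were highest in Zelda, with a sum of 827 CPM against 25.5 to 391 CPM; *Vcam1* (5079) and *Slc40a1* were among the 8, and *Hmox1* (765) was at 0.972 times N42 R femur (0.883 to 1.07). All 9 T cell genes were highest in Zelda, with a sum of 157 CPM against 0 to 31.1 CPM and *Cd4* (485), *Trbc2* (459) and *Lck* (341) in front. Their part was not tested.

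The kidney, lung, intestine, exocrine pancreas and choroid plexus lists summed to less in Zelda than the 10 genes or the other secreted liver proteins. The 7 kidney genes with a row summed to 1.53 CPM (*Cubn* 14 counts, *Slc12a3* 5, *Lrp2* 2), and the 10 lung genes to 44.9 CPM, 534 counts of which were *Napsa*, with *Hopx* (78) and *Ager* (26) next, against 27980 CPM in N25 lung. The intestine genes summed to 22.5 CPM, just above the 22.2 CPM of N25 lung, the highest of the others. In that list *Mttp*, the transfer protein that loads *Apob* and is made in liver too, had 157 counts, *Apoa4* 116 and *Lct* 33. The 4 exocrine pancreas genes with a row summed to 5.78 CPM (*Cela1* 53 counts, *Cpa1* 8), above the range of the others (0 to 2.77 CPM). The choroid plexus list summed to 105 CPM, almost all of it *Aqp1* (1497 counts), with *Folr1* at 6 and *Slc4a5* at 2. The osteoblast genes *Col1a1* (88747 counts), *Col1a2* (68557) and *Sparc* (25267) were the most abundant of the osteoblast list in Zelda.

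**Figure D4:**
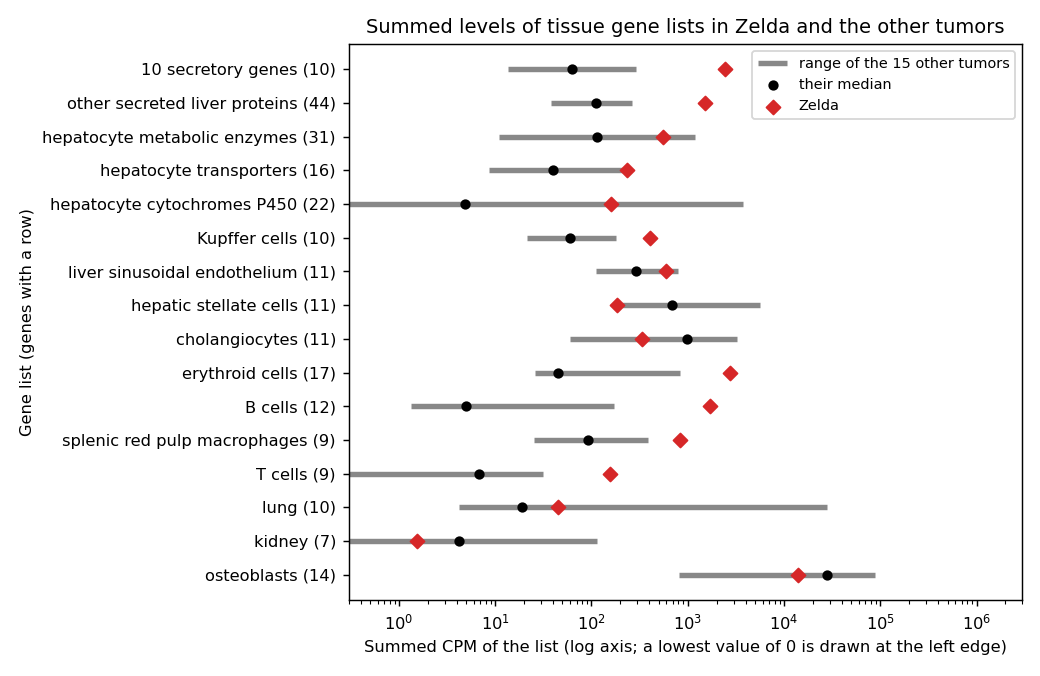
Summed CPM (horizontal log axis) of 16 gene lists in Zelda (red), with the range (grey bar) and median (black) of the other 15 tumors. Zelda lies above the whole range for the 10 secretory genes (2417 CPM), the other secreted liver proteins, Kupffer, erythroid, B cell, red pulp macrophage and T cell genes. It lies within or below the range for hepatocyte enzymes, transporters and P450, and for sinusoidal endothelium, stellate, cholangiocyte, lung, kidney and osteoblast genes. For the hepatocyte enzymes, transporters and P450 it lies above the median of the others. The erythroid, B cell, red pulp macrophage and T cell lists were added after values of Zelda had been seen.

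Receptors and partners of the secreted proteins were not restricted to Zelda. Of 17 genes with a row Zelda was highest for 4. *Tfrc*, the transferrin receptor, had 10649 counts in Zelda (741 CPM), 1.89 times N42 R femur (1.84 to 1.95). *Lrp1*, a lipoprotein receptor (5972 counts), was at 0.143 times the level of N43 spine (0.139 to 0.147), and the ferroxidase *Cp* (3876) at 0.516 times that of N25 lung (0.497 to 0.536).

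The genes whose pattern over the 16 tumors was most like that of the 10 (Pearson r of log2 CPM with the mean log2 CPM of the 10, among 12944 other genes with at least 50 counts in Zelda) were *Pzp* (r = 0.99), *Gc* (0.98), *Fgg* (0.97), *Gm29966* (0.97) and *Ces1c* (0.97), each with at most 9 counts in any tumor but Zelda. Without Massa and Zelda, the 2 tumors farthest from the median, r was 0.88 to 0.95. At counts this low log2 CPM with a prior count of 2 follows library size, which all genes of a tumor share, so these r describe 1 high tumor and the depth of the others. Of genes on none of the lists fixed first, those with the highest ratios of Zelda to the highest other tumor included *Ctse* (22.8), *Ermap* (21.2), *Cr2* (18.3), *Hemgn* (17.9), *Kel* (15.7), *Car1* (12.6), *Rhag* (12.1), *Nxpe2* (11.3) and *Bank1*, most of them erythroid or B cell genes.

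Transferrin, the iron carrier of plasma (chromosome 9, 103204001 to 103230444), was the only one of the 10 expressed across the tumors. It had 6114 counts in Zelda (425 CPM). The other 7 KO tumors ranged from 19.9 CPM in Grilka to 104 CPM in Massa, with a median of 26.8, and WT from 12.7 CPM in N215 R hind limb to 272 CPM in N25 lung, with a median of 85.6. The 4 tumors of mouse N42 lay between 52.1 and 95.3 CPM and those of N43 at 61.9 and 136 CPM, so tumors of a mouse differed by up to 2.21-fold. Zelda exceeded N25 lung by 1.57-fold (1.51 to 1.63), and 4.78-fold (4.64 to 4.92) the pooled others. In N25 lung *Trf* had 4369 counts beside 1 of *Alb*, and in Zelda 47.3 for every 100 of *Alb*.

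**Figure D5:**
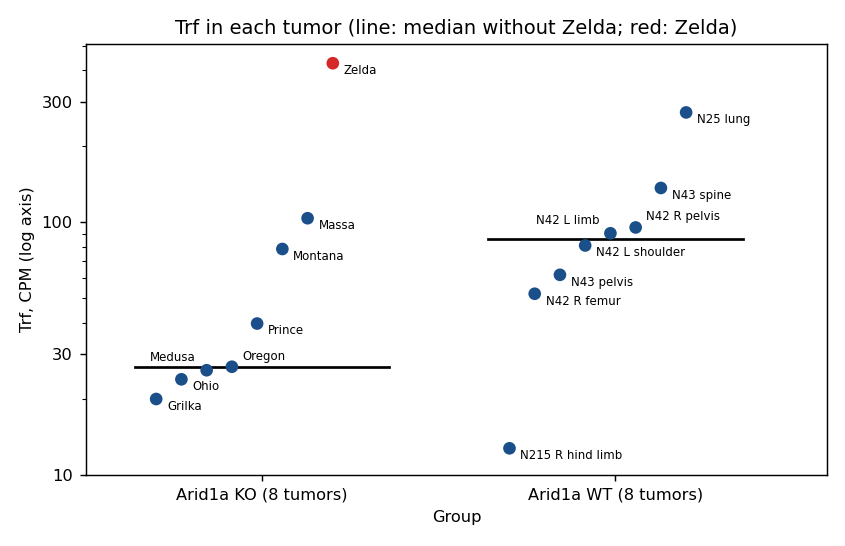
*Trf* in CPM (vertical log axis) in each KO and WT tumor, with the median of each group without Zelda as a line (26.8 and 85.6 CPM) and Zelda in red. The groups overlap, with N215 R hind limb (12.7 CPM) below all KO tumors and N25 lung (272 CPM) above all but Zelda.

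Whether the 10 genes differed between KO and WT was tested without Zelda, in 7 against 8 tumors. The edgeR quasi-likelihood test called 1348 of 15829 genes (8.52%) at an adjusted p under 0.05, and 0 of the 10, of which only *Trf* passed the filter on low counts. At an unadjusted p under 0.05 it would be 4272 of the 15829 genes and 1 of the 10, *Trf*. DESeq2 called 3339 of 20507 genes with an adjusted p. Of the 10 it gave an adjusted p only to *Alb*, *Fga* and *Trf*, and called none of them. Limma-voom called 24 of 15829 genes, and not *Trf*, the only one of the 10 it tested. The log2 fold change of *Trf*, KO minus WT, was −1.20 ± 0.52 (SE), with an edgeR adjusted p of 0.153 (0.0356 before adjustment). Without N25 lung it was −0.75 with an adjusted p of 0.305, and with Zelda in the KO group −0.17 with an adjusted p of 0.907. The 2 groups overlapped for *Trf*, whereas 232 of the 15829 genes (1.47%) did not overlap. With counts summed per mouse edgeR called 5 genes, and limma-voom, taking each mouse as a random effect, called 24, against 1348 by edgeR with each tumor on its own, and the 8 WT tumors came from 4 mice. Between 658 and 1873 genes were called when 1 tumor was left out, and fewer than the main count by over 1.5 times without Oregon (760), N43 spine (800), N42 R pelvis (665), N42 R femur (751), N42 L limb (784) or N42 L shoulder (658).

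The other 9 genes had too few counts outside Zelda for that test. With 0 in most tumors, differences under the value of 3 counts were not detectable at this depth, and the 2 shallow KO tumors allow far higher levels than WT does. Summed over tumors, *Alb* had 10 counts in the 7 KO and 32 in the 8 WT tumors, *Apoa1* 0 and 20, *Apob* 2 and 325, of which 320 were in N25 lung, *Serpina3k* 1 and 43, and *Ttr* 64, all in Prince, and 1. These sums are not scaled for depth, and median total counts were 4991363 in the 7 KO and 14828152 in the WT tumors. Mean CPM of *Alb* was 2.79 in the 7 KO tumors and 0.201 in WT, the reverse of the raw sums, and median CPM was 0 and 0.113. No direction between the groups is read from the sums. With Zelda in the fit and no filter, edgeR called 679 of 25054 genes (2.71%) and 4 of the 10 as higher in KO, namely *Alb* (adjusted p = 0.0427), *Fgb*, *Ttr* and *Serpina1a*, although no more than 3 of the other 7 KO tumors had a count of any of them. DESeq2 with Zelda called 2517 of 20078 genes with an adjusted p and none of the 10. Of the 10 it gave an adjusted p only to *Alb*, *Ttr* and *Trf*. Its default step replaces a count that stands far from its group, and for all of the 10 except *Trf* it set the count of Zelda to 0 or 1, so that the 12918 counts of *Alb* entered as 1.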

How the data were processed

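Per the labels and the methods of the study, total RNA was isolated with RNeasy columns, ribosomal RNA was depleted with RiboZero, and 50-cycle single-end reads were run on an Illumina HiSeq instrument. The authors aligned the reads to mm10 with Novoalign 2.08.01 and Ensembl build 74 splice junctions, allowing up to 50 alignments per read, and deposited raw counts per gene, which they had passed to DESeq2 1.26.0. The strand setting of the counting is not given in the sources used here. No gene in the table has fewer than 6 counts in all.

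CPM are counts divided by TMM-normalized library size (edgeR 4.0.16, R 4.3.3). KO and WT were compared without Zelda by glmQLFit and glmQLFTest after filterByExpr (minimum count 10, minimum total 15), with Benjamini-Hochberg adjustment over all genes tested and a threshold of 0.05, two-sided, with no covariate. Alternatives were DESeq2 1.42.0, limma 3.58.1 (voom, mouse as a random effect), counts summed per mouse, RLE scaling, no filter, Zelda included and each tumor left out. Tumors of 1 mouse are not independent, so p-values over tumors may be too small. Intervals are exact Poisson or binomial at 95% (scipy 1.17.1, Python 3.11.15) and cover counting error only. Exon lengths and positions are from GENCODE vM21 (GRCm38, the assembly of mm10), matched by identifier for 99.7% of genes, and promoters from RefSeq.

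The 10 genes and the gene lists were chosen with earlier results of these data known, and 4 lists (erythroid, B cell, T cell and red pulp macrophage genes) after values of Zelda had been seen. Named from each list were the 3 genes with the most counts in Zelda and every transcription factor and sex chromosome gene, apart from a few that are not reported here; of genes on no list, the 10 with the highest ratio; and the 5 genes most like the set. *Ahsg*, *Mug1*, *Gc*, *Cyp2f2*, *Afp*, *H19*, *Igf2*, *Dlk1*, *Apcs*, *Hamp*, *Clec4f*, *Hsd17b13*, *Sds*, *Cyp2c29*, *Gulo*, *Cyp1a2* and *Mup5* fall outside this rule and were named after their values were seen. The same holds for *Aldh1a1*, *Mepe* and *Ibsp*.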

Additional observations from a re-analysis of the deposited data

Results flagged for a closer look

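Within each group of 8 tumors the highest and lowest CPM of each of the 10 genes was compared with the rest by Dixon's gap, taken at its 95% limit for 8 values. A tumor stood apart in 16 of 20 gene and group pairs. The rule flags about 1 in 20 groups by chance, but the tally is not read against that, since counts in Zelda led to the choice of the genes and a single count over zeros passes by construction. Zelda in KO stood apart for each of the 10 genes: 899 CPM for *Alb*, 425 for *Trf*, 404 for *Apob*, 218 for *Fga*, 157 for *Fgb*, 132 for *Serpina3k*, 130 for *Apoa1*, 24.98 for *Ttr*, 13.6 for *Apoa2* and 11.8 for *Serpina1a*.

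In WT, N25 lung stood apart for *Apob* at 19.9 CPM (320 counts), with the next tumor at 0.140 CPM. N42 R pelvis stood apart for *Serpina3k* at 1.21 CPM (26 counts), with the next at 0.361 CPM, and N215 R hind limb for *Apoa1* at 0.761 CPM (7 counts), with the next at 0.186 CPM. The remaining 3 rest on 1 count each: *Fgb* in N43 pelvis (0.0479 CPM), *Ttr* in N215 R hind limb (0.109 CPM) and *Serpina1a* in N25 lung (0.0622 CPM), with all other WT tumors at 0.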

How the results depend on the processing

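The number of genes called between KO and WT without Zelda, 1348, depended on tool and unit of replication: it was 618 with Zelda, 3339 under DESeq2, 2517 under DESeq2 with Zelda, 679 with Zelda and no filter, 5 with counts summed per mouse and 24 with the mouse as a random effect in limma-voom. It ranged from 658 to 1873 with 1 tumor left out. Of the 10 genes 0 were called, also under 22 of the 24 alternatives. In limma-voom and in the edgeR fits with the filter only *Trf* was tested. DESeq2 gave no adjusted p for most of the 10, so the tally says little about genes other than *Trf*. Without a filter edgeR called 1398 of 24971 genes and 2 of the 10. *Ttr* (log2 fold change 5.57, edgeR adjusted p = 0.0293) rests on 64 counts in Prince. *Serpina1a* (4.09, edgeR adjusted p = 0.0395) rests on 6 counts in Oregon and 1 each in Montana and Prince. With Zelda and no filter edgeR called 679 of 25054 genes and 4 of the 10. The fits with Zelda and no filter, and with Zelda under DESeq2, were added after seeing the data. The log2 fold change of *Trf* kept its sign and stayed on the same side of the threshold under all 24 (−1.52 to −0.10). The share of counts on the 10 genes in Zelda was 0.346% and 0.371% with the Serpina1 and Serpina3 clusters added. Of 12954 genes 27 were over 10 times the highest other tumor, 68 with total counts as library size and 27 of 15439 with a minimum of 20 counts. The ratios of Zelda to the highest other tumor stayed above 1 for all 10 genes under the 3 other library sizes; total counts gave 159 for *Alb*, 8.42 for *Ttr* and 1.63 for *Trf*. No paired analysis was possible because no mouse gave tumors to both groups. Low levels in Massa and Grilka are limited by depth, since 3 counts there are worth 6.48 and 3.99 CPM.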
